A study of Mus musculus with 7 samples.

Results

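The factors that start and elongate protein chains on the cytoplasmic ribosome were followed in LT-HSCs, the long-term haematopoietic stem cells of the marrow, from which all blood lineages can be regrown. The members were taken by symbol: every gene named Eif1 to Eif6 or Eef1 and Eef2 with any ending, without the kinases Eif2ak1 to Eif2ak4 and the genes whose symbol starts with Eef2k. This gave 73 of the 54347 genes in the table, 61 with an Eif symbol and 12 with an Eef symbol. LT-HSCs of 3 female Emcn-/- mice (KO; libraries KO_306, KO_314 and KO_320, named by mouse number) were compared with those of 4 female Emcn+/+ littermates (WT; libraries WT_284, WT_290, WT_310 and WT_312). Emcn codes for endomucin, a surface glycoprotein rich in sialic acid. Both genotypes carry the same strain label, C57BL/6N-EMCN em1(IMPC)Wtsi /WtsiH, a line whose name records an endonuclease-mediated (em1) allele of Emcn, and the sources used here give neither the age of the mice nor the exons that the allele removes. Each library came from 1 mouse and held 3000 to 5000 sorted cells of hind leg marrow. Values below are listed in that order of libraries, and n = 3 KO and 4 WT libraries throughout.

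Translation begins when eIF2, loaded with GTP and the initiator tRNA, joins the small ribosomal subunit together with eIF1, eIF1A, eIF3 and eIF5, while eIF4F binds the cap of the mRNA and opens its leader. The complex scans to a start codon, eIF5 triggers GTP hydrolysis, eIF5B joins the subunits, and eIF2B reloads eIF2. eEF1A then brings each aminoacyl-tRNA, eEF1B reloads eEF1A, and eEF2 moves the ribosome on by a codon. Adult haematopoietic stem cells are known for a low rate of protein synthesis per cell, which has been tied to hypophosphorylated 4E-BPs, the proteins that hold eIF4E away from eIF4G. The values here are RNA levels and carry no measure of protein, phosphorylation or synthesis rate.

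Several factors come as pairs of similar genes, and how far their reads can be told apart decides what their separate levels mean. The coding stretches of 60 bases in which the members of a pair differ most are shown for the 3 pairs the results return to, from GENCODE M21 transcripts (GRCm38), read 5′ to 3′ on the coding strand, with the bases that differ from the partner in capitals. Positions count from the first coding base.
Eif1: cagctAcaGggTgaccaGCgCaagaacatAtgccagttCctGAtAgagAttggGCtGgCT
Eif1b: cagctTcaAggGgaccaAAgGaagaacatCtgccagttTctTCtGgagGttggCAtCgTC
Eif4a1: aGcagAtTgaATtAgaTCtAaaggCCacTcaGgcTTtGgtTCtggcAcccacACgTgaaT
Eif4a2: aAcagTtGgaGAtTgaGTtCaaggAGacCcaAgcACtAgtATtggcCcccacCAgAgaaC
Eif2s3x: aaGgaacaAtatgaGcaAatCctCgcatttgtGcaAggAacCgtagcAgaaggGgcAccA
Eif2s3y: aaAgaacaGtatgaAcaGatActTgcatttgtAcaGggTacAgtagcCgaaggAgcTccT
Eif1 lies on chromosome 11 from 100319885 to 100322096 (plus strand) and Eif1b on chromosome 9 from 120492232 to 120495330 (plus strand), and the stretch spans coding bases 250 to 309 of both, with 17 mismatches. Over the whole coding sequence 64 of 339 aligned bases differ, an identity of 81.1%. Eif4a1 lies on chromosome 11 from 69666936 to 69672423 (minus strand) and Eif4a2 on chromosome 16 from 23107444 to 23114136 (plus strand). Their stretch starts at coding base 275 in Eif4a1 and 281 in Eif4a2 and holds 23 mismatches, at an identity of 78.2% over the aligned coding sequence. Eif2s3x is on chromosome X and Eif2s3y on chromosome Y, with 14 mismatches in coding bases 601 to 660 and an identity of 86.3%. Eif3j1 and Eif3j2 are a different case: their coding sequences had 0 mismatches over 783 aligned bases, so reads from the coding part cannot be assigned to one of them.

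The libraries held 6648881 to 11101774 counts in KO and 6444134 to 10322741 counts in WT. As a check of the labels, Emcn was at 0.0861, 0 and 0 CPM (counts per 1e6 of the TMM-scaled library size) in KO LT-HSCs, against 15.8, 30.9, 34.1 and 27.7 CPM in WT. The LT-HSC markers fixed for the check, among them Kit, Mecom, Hlf and Slamf1, summed to 1975 to 2268 CPM in KO and 1440 to 2357 CPM in WT, with 0 of 12 at 0 in every library, and Emcn was the 1 of them that passed the test. The library WT_284 stood apart. Its 15 neutrophil and monocyte markers summed to 14769 CPM, against 195 to 680 CPM in KO and 253 to 1288 CPM in the other WT libraries. Its erythroid markers summed to 3248 CPM, against 147 to 243 CPM in KO and 200.3 to 683 CPM in the remaining WT libraries. Its 7 cycling genes summed to 3553 CPM, against 1404 to 2057 CPM in KO and 1280 to 2307 CPM in the other WT libraries. All 15 neutrophil and monocyte markers and all 9 tested erythroid markers had negative fold changes (KO over WT) and 0 were called, where 47.6% of all genes tested were positive. These differences were not in WT_284 alone. Mpo was at 5.42, 8.95 and 8.79 CPM in KO and 1084, 203, 79.2 and 27.2 CPM in WT. Ly6c2, Irf8, Epor and Hbb-bt also had all KO values below all WT values (all genes: 4.86% without overlap in either direction), and the other tested markers of both lists overlapped. The mast cell and basophil list was the 1 of 9 marker lists in which every KO library (0 to 7.92 CPM) lay below every WT library (8.86 to 86.3 CPM), with Cma1 at 0 in all libraries and 0 of 4 tested genes called. The part of these cells in the results below was not tested. In sorted bulk samples, fewer cells of a type and less RNA per cell cannot be told apart.

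LT-HSCs of both genotypes expressed most of the factor set, and no factor passed the test between them. Of the 73 members, 59 passed the filter on low counts and were tested, and 0 passed the threshold of an adjusted p under 0.05 (edgeR quasi-likelihood test, Benjamini-Hochberg over all 15372 genes tested), where the background share of all genes called was 0.00651%. The 1 gene called was Emcn. At an unadjusted p under 0.05 there were 0 members, against 3.27% of all genes tested. The fold changes of the members were centred on 0, with 29 positive and 30 negative and a median log2 fold change of -0.00047, beside 47.6% positive and a median of -0.0189 over all genes tested. The smallest unadjusted p among the members, 0.0906 for Eif1, corresponded to an adjusted p of 0.992. Single libraries weighed on values this small. Leaving out 1 library turned the sign of 28 of the 59 fold changes, and it turned the sign or moved the value by over 1.5 times for 54 of them. Without WT_284 the sign turned for 10 members: Eif5, Eif4a1, Eif2a, Eif2b1, Eif2b2, Eif3l, Eif4e2, Eif4ebp2, Eif4g1 and Eif4g3. The KO and WT values of a single member, Eif1, did not overlap, which is 1.69% of the tested members beside 4.86% of all genes tested.

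**Figure D1:**
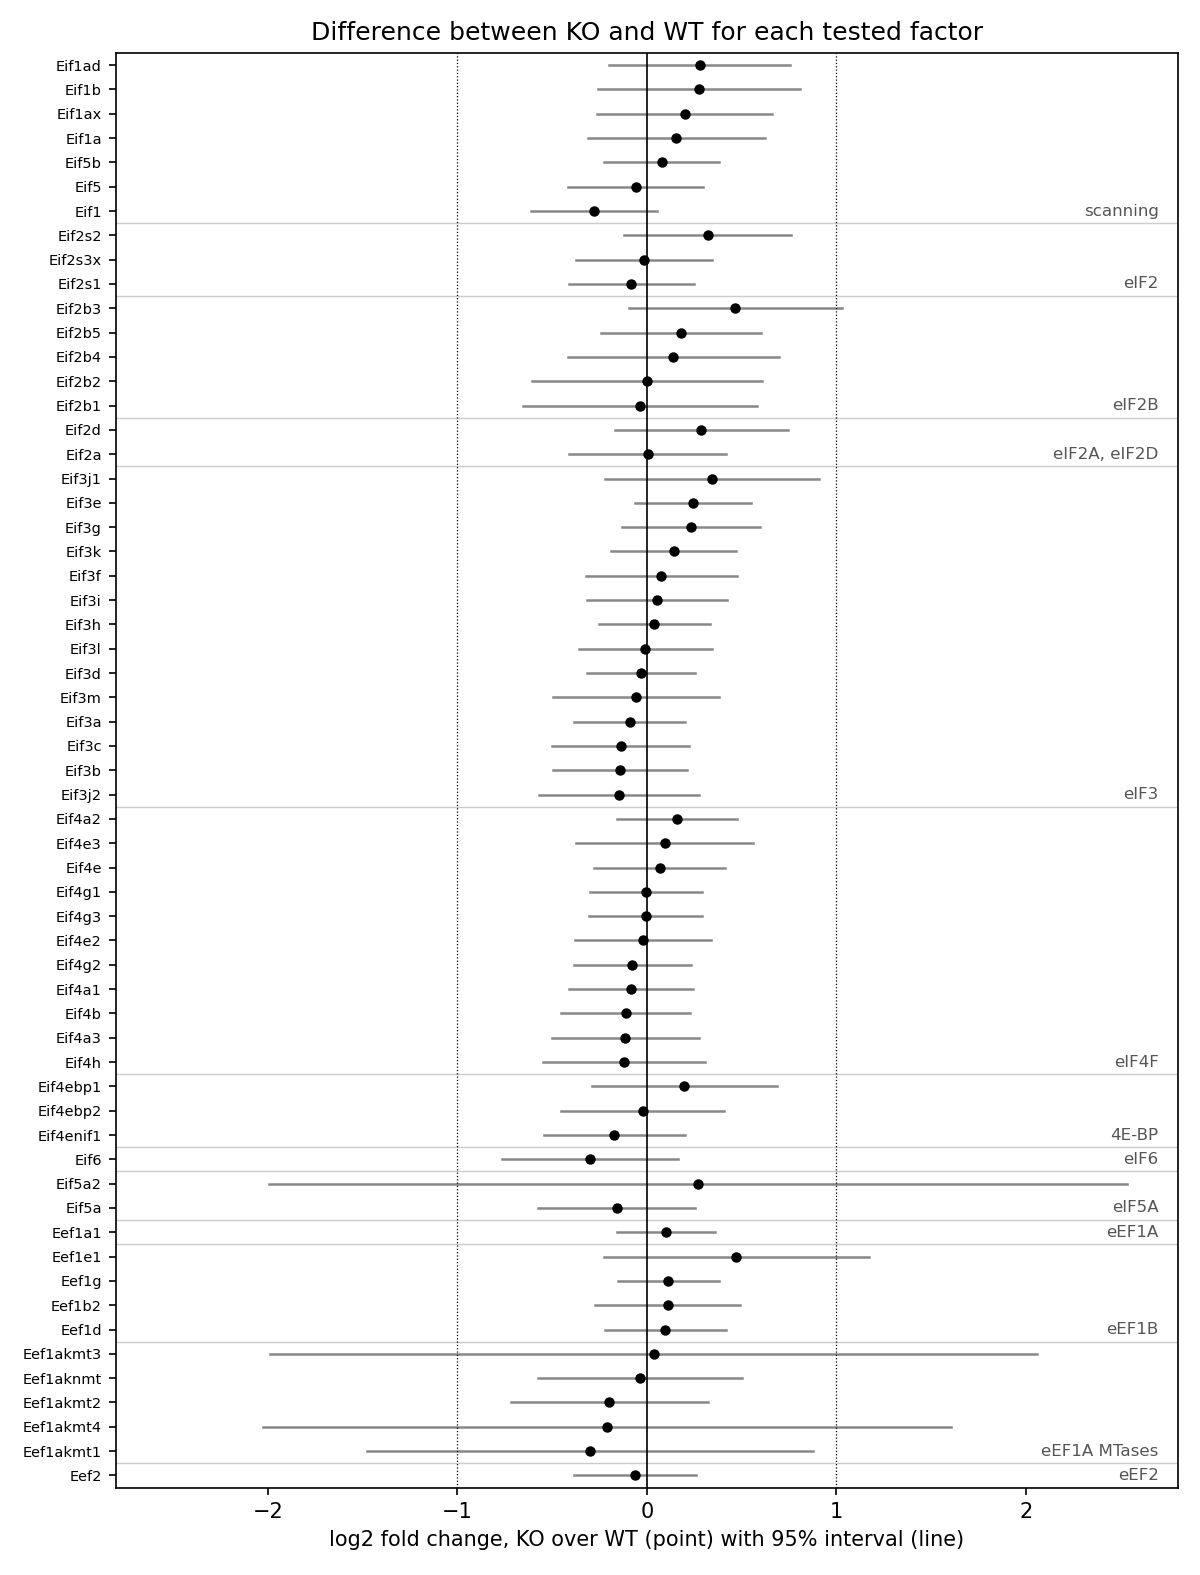
Log2 fold change (KO over WT, x axis) of the 59 tested factors with the 95% interval from the edgeR fit, grouped by role. All points lie between -0.30 and 0.47, and the wide intervals belong to the factors with the fewest counts.

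Most differences were bounded by narrow intervals. Of the 55 members at 10 CPM or more on average, 53 (96.4%) had a 95% interval of the fold change that lay within 2-fold in either direction, and 37 (67.3%) had one within 1.5-fold. Over all 9896 genes at that level the shares were 76.5% and 32.5%. The pooled SD within genotypes had a median of 0.212 (log2 CPM) over these 55 members and of 0.302 over all genes at that level. The factors are abundant, and at 100 CPM or more the medians were 0.18 for 29 members and 0.205 for 1955 genes. These are descriptions, and no test of the members as a list was made.

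Together the members took 1.77%, 1.58% and 1.71% of all counts in KO LT-HSCs and 1.52%, 1.77%, 1.64% and 1.54% in WT LT-HSCs. The mean was 1.68% ± 0.0942 in KO and 1.62% ± 0.118 in WT (SD), and the groups overlapped. Initiation factors held 0.811% ± 0.0465 in KO and 0.8% ± 0.0467 in WT. The 12 genes with an Eef symbol held a similar share, 0.874% ± 0.0559 in KO and 0.818% ± 0.0793 in WT, of which Eef1a1 alone made 0.546% in KO and 0.5% in WT. This split follows the symbols and not the roles, since the Eef genes include Eef1e1 and the enzymes that methylate eEF1A.

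Levels of different factors were compared per length, as CPM per kilobase of merged exon. Eef1a1 (chromosome 9, 78478449 to 78489151, minus strand), the carrier of aminoacyl-tRNA, stood first at 2153, 2023 and 2346 CPM per kb in KO and 1997, 2198, 2101 and 1810 CPM per kb in WT. Eef2 (chromosome 10, 81176631 to 81182498, plus strand), the translocase, came next at 567, 398 and 498 CPM per kb in KO and 535, 577, 490.1 and 438 CPM per kb in WT. Eef1b2, a nucleotide exchange subunit of eEF1B, followed at 264, 350 and 406 CPM per kb in KO and 262, 275, 336 and 388 CPM per kb in WT. Eef1b2 lay below Eef2 in 7 of 7 libraries although their ranges over all libraries overlapped.

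Eef1g, the structural subunit of eEF1B, came after these at 198, 210 and 234 CPM per kb in KO and 187, 204, 199.6 and 200.3 CPM per kb in WT. The first genes with an Eif symbol, Eif3h, Eif3c, Eif5a, Eif3a, Eif4b and Eif1, stood below it at averages over the 7 libraries from 114 to 85.6 CPM per kb. Among the 58 pairs of neighbours in this order, 3 had ranges that did not meet: Eef1a1 over Eef2, Eef1b2 over Eef1g, and Eef1g over Eif3h. All other neighbours overlapped across libraries, so the order below the 4 elongation factors is approximate. With the length of the longest transcript in place of merged exons, 9 of the first 10 remained.

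**Figure D2:**
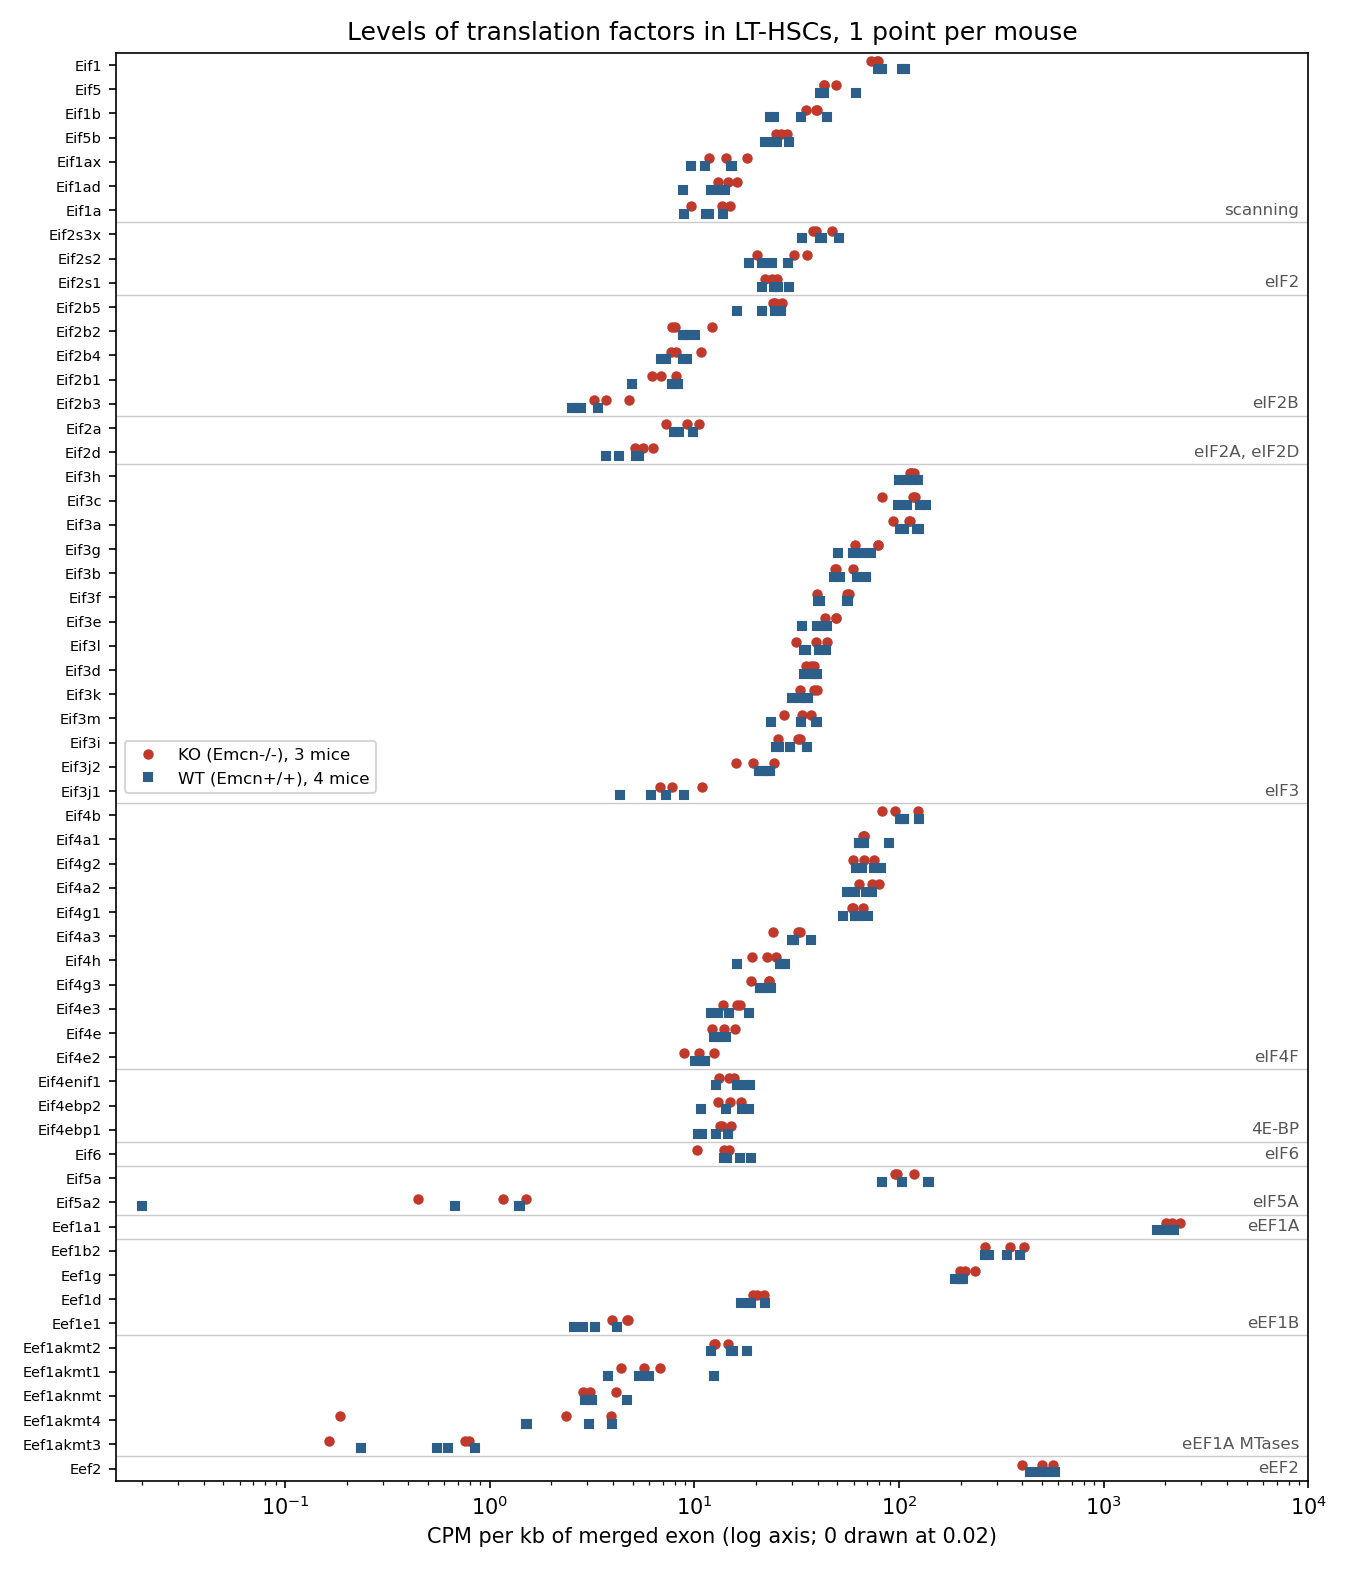
Level of each tested factor in each mouse, as CPM per kb of merged exon on a log axis, with 3 KO points (circles) drawn above 4 WT points (squares) for each gene. The 4 elongation factors Eef1a1, Eef2, Eef1b2 and Eef1g stand to the right of every gene with an Eif symbol, and KO and WT points lie over each other in nearly every line.

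The factors of scanning and start codon choice held the smallest p among the members. Eif1, which keeps the scanning ribosome from settling on a wrong start codon, was at 162.9, 152.6 and 164.7 CPM in KO LT-HSCs and 216.7, 172.9, 223.1 and 164.9 CPM in WT LT-HSCs. The 3 KO values lay close together and just under the lowest WT value, that of WT_312, while WT_284 and WT_310 were the high ones. The log2 fold change was -0.28 ± 0.15 (SE), with a 95% interval from -0.61 to 0.05, and it did not pass (adjusted p 0.992, edgeR). It was -0.22 without WT_284. An Emd transcript in the annotation is 96.7% identical to Eif1 over 50.1% of its length, and Emd had 23.6 CPM on average.

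Eif1b, a close copy of Eif1, ran the other way in level, at 39.3, 44.9 and 43.9 CPM in KO and 27.6, 26.3, 49.97 and 37.4 CPM in WT. WT_310 was the highest of all and WT_284 and WT_290 the lowest, so the groups overlapped, and the log2 fold change was 0.27 ± 0.25 (SE, adjusted p 0.992, edgeR). As a share of the summed level of both genes per kb, Eif1b made 31.0%, 35.4% and 33.2% in KO and 19.2%, 22.1%, 29.5% and 29.7% in WT. All 3 KO shares were above all 4 WT shares, with the lowest KO share 31.0% and the highest WT share 29.7%. This was 1 of the 10 paralogue sets compared, where the levels of 4.86% of all genes tested did not overlap between the groups. The share has no test of its own, and neither gene passed. The sequences of both genes given above differ at 17 of 60 bases in their most different stretch.

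The other genes grouped under scanning gave 0 calls. Eif1a and Eif1ax, the autosomal and X-linked eIF1A genes that stabilise the open scanning complex, had log2 fold changes of 0.16 ± 0.22 and 0.20 ± 0.21 (SE), which ran from 0.01 to 0.34 and from 0.05 to 0.35 with 1 library left out. Eif1ax made 49.0%, 55.1% and 56.9% of their summed level per kb in KO and 57.4%, 56.2%, 45.0% and 51.9% in WT. Eif1ad, an eIF1A-like gene, was at 0.28 ± 0.22 (SE), and it overlaps the antisense gene Banf1, which had 32.0 CPM on average. Eif5 and Eif5b, the GTPase activator of eIF2 and the joining factor, had log2 fold changes of -0.06 ± 0.16 and 0.08 ± 0.14 (SE). Eif5 was at 293, 293 and 335 CPM in KO and 419, 279, 288 and 292 CPM in WT, high only in WT_284, and without that library its log2 fold change was 0.10. Over the 7 genes of this group the summed level was 913, 914 and 994 CPM in KO and 1071, 885, 930 and 891 CPM in WT.

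eIF2 carries the initiator tRNA and is the target of the stress kinases. Eif2s2, its beta subunit, was at 137, 208 and 239 CPM in KO and 161, 125, 145 and 193 CPM in WT. KO_314 and KO_320 were above every WT library and KO_306 was within the WT range. The log2 fold change was 0.32 ± 0.20 (SE), with a 95% interval from -0.12 to 0.76 (adjusted p 0.992, edgeR), and it was 0.50 without KO_306. Eif2s1, the alpha subunit whose phosphorylation shuts initiation down, was at 109, 119 and 125 CPM in KO and 127, 106, 144 and 121 CPM in WT, with a log2 fold change of -0.08 ± 0.15 (SE).

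The gamma subunit is encoded on both sex chromosomes, and the mice are female. Eif2s3x was at 180, 144 and 150 CPM in KO and 156, 193, 161 and 128 CPM in WT, with a log2 fold change of -0.01 ± 0.16 (SE). Its sign changed with the scaling, to 0.02 with upper-quartile factors. Eif2s3y had 0 counts in all 7 libraries, so no count of Eif2s3x was assigned to its Y-linked copy. Of the 3 subunits, 1 had a positive and 2 a negative fold change, and their sum was 425, 471 and 514 CPM in KO and 444, 424, 449 and 442 CPM in WT.

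eIF2B is the 5-subunit exchange factor that reloads eIF2 with GTP. Per kb of merged exon, Eif2b1, Eif2b2, Eif2b3 and Eif2b4 lay at the lower end of the set, at averages from 3.29 to 9.30 CPM per kb. Eif2b5 was higher, at 23.5 CPM per kb beside 24.6 CPM per kb for Eif2s1. Eif2b3, the gamma subunit, was at 21.0, 31.3 and 24.2 CPM in KO and 17.1, 22.0, 18.2 and 16.4 CPM in WT. Only WT_290 reached into the KO range. The log2 fold change was 0.47 ± 0.26 (SE), with a 95% interval from -0.10 to 1.03 (unadjusted p 0.0962 and adjusted p 0.992, edgeR). Eif2b5, the catalytic epsilon subunit, was at 62.9, 69.3 and 64.2 CPM in KO and 64.6, 68.6, 55.8 and 42.1 CPM in WT, with a log2 fold change of 0.18 ± 0.19 (SE). Eif2b1, Eif2b2 and Eif2b4 had log2 fold changes of -0.04, 0.00 and 0.14, and Eif2b4 overlaps the antisense gene Snx17, with 34.5 CPM on average. The sum of the 5 subunits was 141, 159 and 149 CPM in KO and 145, 148, 130 and 111 CPM in WT, with WT_312 the lowest.

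The factors that can deliver tRNA without eIF2 were also present. Eif2a (not the eIF2 alpha subunit) was at 55.2 ± 10.045 CPM in KO and 55.0 ± 6.0 CPM in WT (SD), a log2 fold change of 0.00 ± 0.19 (SE) whose sign turned in several alternatives. Eif2d was at 41.8 ± 4.1 CPM in KO and 34.2 ± 5.7 CPM in WT (SD), with a log2 fold change of 0.29 ± 0.21 (SE). Both overlap an antisense gene of higher level, Serp1 with 78.3 CPM and Rassf5 with 89.0 CPM on average, and the sources used here do not say whether counting used the strand.

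eIF3, the largest initiation factor, organises the small subunit and its mRNA. Its 14 genes summed to 3049, 2769 and 3144 CPM in KO and 3190, 3247, 2875 and 2729 CPM in WT. Of the 14, 7 had positive and 7 negative fold changes, from -0.15 to 0.34. Eif3e, a peripheral subunit known as an integration site of mouse mammary tumour virus (Int6), had the smallest p of the complex. It was at 290.4, 330.3 and 330.1 CPM in KO and 224, 266, 299 and 283 CPM in WT, with KO_306 inside the WT range. Its log2 fold change was 0.24 ± 0.14 (SE), with a 95% interval from -0.06 to 0.55 (adjusted p 0.992, edgeR).

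Eif3g, an RNA-binding subunit that acts in scanning, was at 121, 157 and 156 CPM in KO and 144, 130, 118 and 99.5 CPM in WT, with a log2 fold change of 0.23 ± 0.17 (SE). Eif3h, first among the eIF3 genes by the mean over libraries per kb of merged exon but above Eif3c in only 3 of 7 libraries, was at 182, 191 and 185 CPM in KO and 199, 176, 189 and 161 CPM in WT. The core genes Eif3a, Eif3b and Eif3c had log2 fold changes of -0.09, -0.14 and -0.14, and Eif3c was lowest in KO_314 at 290.4 CPM. Eif3d, Eif3f, Eif3i, Eif3k, Eif3l and Eif3m lay between -0.06 and 0.14. The loosely bound subunit eIF3j is encoded by Eif3j1 and Eif3j2, with log2 fold changes of 0.34 ± 0.26 and -0.15 ± 0.19 (SE). Since their coding sequences match over all 783 aligned bases, the opposite signs of this pair are uncertain. By gene span Eif3j1 also overlaps the antisense gene Spg11 at 50.4 CPM, and overlap of exons was not checked.

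**Figure D3:**
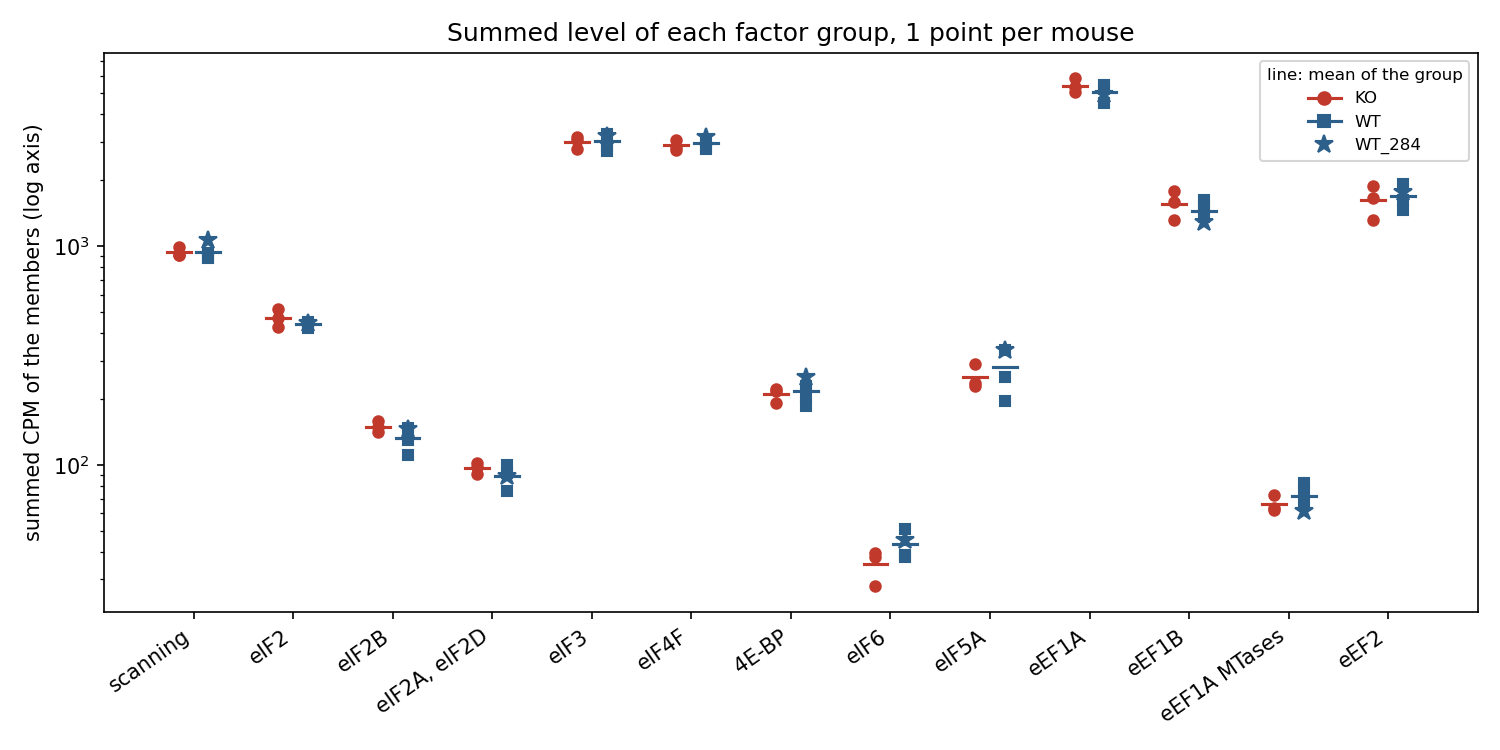
Summed CPM of each factor group in each mouse on a log axis, KO (circles) left of WT (squares), with WT_284 as a star and the group mean as a line. The KO and WT points overlap in every group shown.

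eIF4F binds the cap through eIF4E, bridges to eIF3 through eIF4G and unwinds the leader through the helicase eIF4A. Its 12 genes, with partners, summed to 3071, 2760 and 2840 CPM in KO and 3161, 3054, 2777 and 2829 CPM in WT. Eif4e, the cap-binding protein, was at 73.0, 83.4 and 95.01 CPM in KO and 81.1, 75.0, 77.5 and 86.0 CPM in WT, with the lowest and the highest value both in KO and a log2 fold change of 0.07 ± 0.16 (SE). Eif4e2 (4EHP), a cap-binding repressor, had -0.02 ± 0.17 (SE), and Eif4e3, a weaker cap binder, 0.09 ± 0.22 (SE). Per kb of merged exon the 3 took similar shares of their sum: Eif4e held 34.7% in KO and 34.5% in WT, Eif4e2 26.5% in KO and 28.0% in WT, and Eif4e3 38.8% in KO and 37.4% in WT. This order depends on the length used, since per kb of the longest transcript Eif4e2 held the highest share, 41.4% in KO and 43.4% in WT, and Eif4e3 the lowest, 28.2% in KO and 26.9% in WT. Eif4e3, with 37.7 CPM on average, also overlaps a gene on the same strand that had 18.6 CPM, so its share is uncertain. Eif4e1b, a germline copy, had 0 counts in every library.

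In the helicase pair 1 library decided the sign of a fold change. Eif4a1 was at 292.0, 291.7 and 289.0 CPM in KO and 387, 294, 276 and 277 CPM in WT. The 3 KO values were almost equal, and WT_284, the library with the high myeloid, erythroid and cycling markers, stood alone above the rest. The log2 fold change was -0.08 ± 0.15 (SE), and without WT_284 it was 0.05. Small nucleolar RNA genes inside Eif4a1 held up to 38.6 CPM on average, and the sources used here do not say whether their reads reached its count. Eif4a2, the other helicase, was at 340.5, 424 and 393 CPM in KO and 324, 295, 367 and 396 CPM in WT, with a log2 fold change of 0.16 ± 0.15 (SE). It likewise holds Snora81, with 37.7 CPM, and overlaps the antisense gene Rfc4, with 24.4 CPM.

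Per kb of merged exon, Eif4a2 made 48.6%, 54.1% and 52.5% of the pair in KO and 40.4%, 45.0%, 51.9% and 53.7% in WT. The lowest shares were those of WT_284 and WT_290, and WT_310 and WT_312 lay among the KO mice. The 3 scaffolds had similar means in both genotypes: Eif4g1 at 449 ± 30.2 CPM in KO and 451 ± 52.4 CPM in WT, Eif4g2 (DAP5, which lacks the eIF4E site) at 683 ± 79.4 CPM in KO and 721 ± 91.3 CPM in WT, and Eif4g3 at 240.3 ± 27.4 CPM in KO and 241 ± 14.5 CPM in WT (SD). Their log2 fold changes were -0.01, -0.08 and -0.01, and the sign of each turned in at least 1 alternative, upper-quartile factors giving 0.03 for Eif4g1 and 0.03 for Eif4g3. Eif4b, which stimulates the helicase, was at 554, 371 and 429 CPM in KO and 474, 557, 450 and 470 CPM in WT, and KO mice held both a value near the top and the lowest one. Eif4a3, a helicase of the exon junction complex, and Eif4h had log2 fold changes of -0.11 and -0.12.

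The 4E-BPs, the brake on eIF4E that is tied to low protein synthesis in stem cells, were expressed in both genotypes. Eif4ebp1 was at 29.8, 29.2 and 33.0 CPM in KO and 32.0, 28.1, 23.8 and 23.0 CPM in WT, with a log2 fold change of 0.20 ± 0.23 (SE) and a 95% interval from -0.29 to 0.69. Eif4ebp2 was the higher of the pair by CPM, at 97.5, 86.0 and 75.1 CPM in KO and 107, 98.6, 82.1 and 62.5 CPM in WT, with a log2 fold change of -0.02 ± 0.20 (SE). Its sign changed with the scaling, to 0.02 with upper-quartile factors. Per kb of merged exon they were close: Eif4ebp1 held 45.4% in KO and 44.4% in WT of the family, and Eif4ebp2 48.0% in KO and 54.5% in WT. Eif4ebp3 held the rest, 6.55% in KO and 1.10% in WT, from few and uncertain counts that bear on the other shares. The Eif4ebp2 shares overlapped between the groups, with 52.6%, 45.1% and 46.4% in KO and 54.9%, 55.7%, 56.7% and 50.8% in WT.

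Eif4ebp3 had 14, 24 and 0 counts in KO and 4, 6, 0 and 0 counts in WT and was not tested. It is identical over 67.7% of its length to a gene on the same strand that had 16.5 CPM on average, so its counts are uncertain. Eif4enif1 (4E-T), which carries eIF4E into the nucleus and to P-bodies, was at 94.4, 99.6 and 83.7 CPM in KO and 113, 103, 80.8 and 119.7 CPM in WT, with a log2 fold change of -0.17 ± 0.17 (SE), and it overlaps the antisense gene Drg1 at 83.3 CPM.

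Eif6, which keeps the large subunit from joining too early, was at 27.9, 37.9 and 39.7 CPM in KO and 45.3, 38.9, 51.2 and 37.9 CPM in WT. KO_306 was the lowest and the other KO mice were level with the lower WT mice. The log2 fold change was -0.30 ± 0.21 (SE), with a 95% interval from -0.77 to 0.16 (adjusted p 0.992, edgeR), and -0.18 without KO_306. Eif5a, the hypusine-bearing factor that helps the ribosome over difficult peptide bonds, was at 281, 226 and 232 CPM in KO and 333, 329, 245 and 195 CPM in WT, with a log2 fold change of -0.16 ± 0.19 (SE). It was -0.05 without WT_284 and -0.28 without KO_306. Its copy Eif5a2 held between 0% and 1.34% of the pair per kb and had too few counts to bound a change, with a 95% interval from -1.996 to 2.53.

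Among the elongation factors, Eef1a1 was at 5367, 5042 and 5848 CPM in KO and 4977, 5480, 5239 and 4511 CPM in WT. It had the narrowest interval of the set, from -0.16 to 0.36 around a log2 fold change of 0.10 ± 0.12 (SE). Its tissue-restricted copy Eef1a2, known from neurons and muscle, had 1 count, in KO_306, and 0 in the other 6 libraries, where 0 counts allow up to 0.283 to 0.458 CPM. Eef2 was at 1886, 1324 and 1657 CPM in KO and 1778, 1917, 1629 and 1457 CPM in WT, with a log2 fold change of -0.06 ± 0.15 (SE), which was 0.08 without KO_314.

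The eEF1B subunit genes Eef1b2, Eef1d and Eef1g and the related Eef1e1 had positive fold changes and 0 passed. Without KO_320 that of Eef1b2 was -0.02. Eef1b2 was at 669, 886 and 1029 CPM in KO and 664, 697, 851 and 982 CPM in WT, the same spread in both groups, with 0.11 ± 0.18 (SE). Eef1g was at 514, 546 and 607 CPM in KO and 485, 531, 519 and 521 CPM in WT, with 0.11 ± 0.12 (SE). Eef1d had 0.10 ± 0.15 (SE). Eef1e1 (p18), a multisynthetase complex protein related in sequence to eEF1B subunits, had the highest fold change of the tested members, 0.47 ± 0.32 (SE), at 12.9, 15.5 and 15.3 CPM in KO and 13.6, 9.35, 8.41 and 10.7 CPM in WT. WT_284 lay inside the KO range, and the 95% interval ran from -0.23 to 1.17 (adjusted p 0.992, edgeR).

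The 5 enzymes that methylate eEF1A were low. Eef1akmt2 was at 22.3, 25.6 and 21.9 CPM in KO and 21.3, 27.1, 31.8 and 26.7 CPM in WT, a log2 fold change of -0.20 ± 0.24 (SE). It overlaps a gene on the same strand that had 8.33 CPM on average. Eef1akmt1 was at 4.13, 6.41 and 5.35 CPM in KO and 5.70, 5.10, 11.8 and 3.60 CPM in WT, and its value of -0.30 ± 0.54 (SE) turned to 0.14 without WT_310. Eef1aknmt was at 32.7 ± 6.75 CPM in KO and 33.5 ± 8.17 CPM in WT (SD). Eef1akmt3 and Eef1akmt4 averaged 1.55 and 3.80 CPM over the 7 libraries, their intervals reached past 2-fold on both sides, and each overlaps an antisense gene of higher level.

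Of the 14 members that were not tested, 8 had 0 counts in all 7 libraries: Eif2s3y, Eif4e1b, Eif1ad2, Eif1ad3, Eif1ad6, Eif1ad7, Eif1ad8 and Eif1ad16. The other 6, Eef1a2, Eif4ebp3, Eif4a3l1, Eif4a3l2, Eif1ad4 and Eif1ad19, had a few counts. Eif1ad4 and the Eif4a3-like copies on chromosome 6 have near-identical genes elsewhere, so single counts in them cannot be assigned with certainty. Eif1ad19, with 3, 4 and 0 counts in KO and 0, 1, 2 and 0 counts in WT, has no such gene at 95% identity over 50% of its length.

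**Figure D4:**
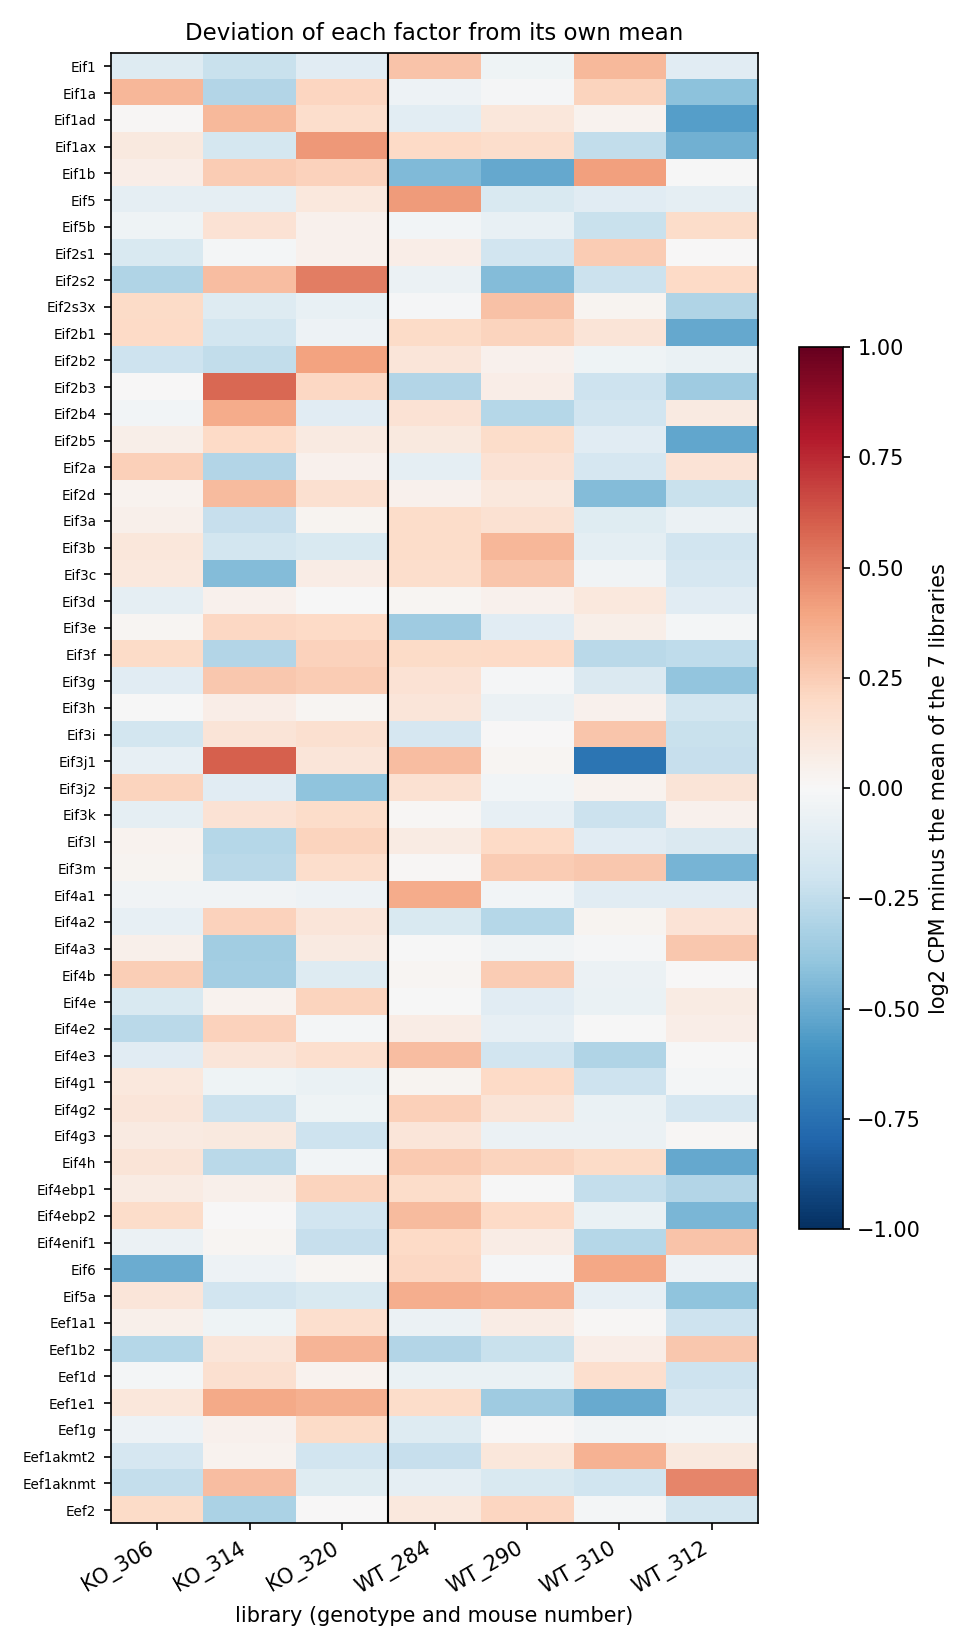
Log2 CPM of each of the 55 members at 10 CPM or more minus its mean over the 7 libraries, with KO libraries left of the line and WT libraries right of it. Red and blue are mixed within each library, no cell reaches 1 in either direction, and the column of WT_312 is the bluest, with the lowest value of 19 members.

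The factors of a library lay close to their own means. The median deviation of the 55 members from their own means was 0.02, 0.02 and 0.07 log2 units in KO and 0.08, 0.01, -0.06 and -0.11 in WT. The lowest median was that of WT_312, which held the lowest value of 19 of the 55 members, against 4, 11 and 2 in KO and 4, 6 and 9 in the other WT libraries. The widest single deviation was Eif3j1 in WT_310, at -0.73.

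A list of kinases, phosphatase subunits, mTOR pathway members, mRNA-binding partners and other genes related to translation was read from the same fit. It also holds stress-response and termination genes, such as Atf4, Ddit3, Trib3, Etf1 and Gspt1, so its counts are not those of genes that act on the factors alone. Of 49 listed genes 48 were tested, 18 with positive and 30 with negative fold changes and a median of -0.09, and 0 passed the threshold. At an unadjusted p under 0.05 there were 2 of the 48 (all genes: 3.27%). The same 2 of 48 had all KO values below all WT values and 0 had them above. Over all genes tested 4.86% did not overlap in either direction, and 2.43% had KO below WT. Eif2ak3 (PERK), the eIF2 alpha kinase of the endoplasmic reticulum, was at 27.6, 25.6 and 16.9 CPM in KO and 47.6, 36.4, 31.2 and 35.8 CPM in WT. Its log2 fold change was -0.69 ± 0.25 (SE, unadjusted p 0.0173 and adjusted p 0.992, edgeR). WT_284 was the highest library, and the groups were also apart without it.

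Vars, the valyl-tRNA synthetase that binds eEF1, was at 181, 171 and 156 CPM in KO and 223, 214, 191 and 207 CPM in WT, with a log2 fold change of -0.30 ± 0.13 (SE, unadjusted p 0.0445 and adjusted p 0.992, edgeR). Akt1s1 (PRAS40), an inhibitor within mTORC1, was at 21.2, 35.2 and 30.7 CPM in KO and 22.4, 23.7, 17.0 and 16.7 CPM in WT, with 0.54 ± 0.27 (SE). Rps6, a ribosomal protein and the classical S6 kinase substrate, was at 1159, 1683 and 1635 CPM in KO and 1026, 1204, 1347 and 1296 CPM in WT, with 0.29 ± 0.16 (SE), and its KO values included one inside the WT range.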

How the data were processed

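RNA from sorted LT-HSCs of 3 KO and 4 WT mice was sequenced in pairs after library preparation with the SMARTer stranded pico-input kit for total RNA, per the labels' protocols, although the labels also say polyA RNA. The authors deposited estimated counts, given as whole numbers and not normalized. They came from cutadapt and Salmon, per the submitters' processing notes, with neither version nor annotation given in the sources used here. Each of the 7 value columns matched a library, leaving 0 unused. GENCODE M21 (GRCm38) gave positions, exon lengths and sequences, and 71 of 73 members had the same identifier version there.

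Counts were compared with the quasi-likelihood test of edgeR 4.0.16 (R 4.3.3) after filterByExpr and TMM scaling, as KO minus WT with robust dispersions. P-values were adjusted over 15372 genes by Benjamini-Hochberg, with a threshold of 0.05, and the script was tested on simulated data. SE is the log2 fold change over the square root of F, and 95% intervals follow from it. A count of 0 allows up to 3 counts; limits cover counting error only. Alternatives were DESeq2 1.42.0, RLE and upper-quartile factors, no filter, 1 CPM in 3 libraries, no robust fit, limma-voom (limma 3.58.1) with quality weights, and leaving out each mouse. Sequences were aligned with Biopython 1.88 and blastn 2.17.0. Overlaps with other genes were read from whole gene spans, and overlap of exons was not checked. By span, 13 tested members overlapped a gene with over 10% of their own level, 8 of them only antisense. The submitters call the replicates mice; the labels name no litter, sort day or batch, so these could not be separated from genotype.

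Named were, in each factor group, the 2 members with the smallest p and the one with the highest level per kb, all paralogue sets, and of the regulators those with an unadjusted p under 0.05 and the 4 smallest p; the remaining members are given by value or count. The members, groups, marker lists and regulator list were chosen with earlier results of these data known.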

Additional observations from a re-analysis of the deposited data

Results flagged for a closer look

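In 6 of the 59 tested members 1 WT library lay far from the other 3 by Dixon's criterion (the gap to the nearest library over the whole range), which is 10.2% of the tested members beside 8.70% of all genes tested, and chance marks about 1 in 20 such groups. WT_284 stood above the others for Eif4a1 at 387 CPM and for Eif5 at 419 CPM, and its high neutrophil, erythroid and cycling markers are given above; their part in these values was not tested. WT_312 stood below the others for Eif2b1 at 12.8 CPM and for Eif4h at 89.5 CPM, and above them for Eif4a3 at 79.0 CPM and for Eef1aknmt at 45.7 CPM. The criterion was not computed for the KO group of 3 libraries.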

How the results depend on the processing

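No paired analysis was possible because every mouse number occurs once. Over 14 alternatives 0 members were called. All genes called numbered 12 with DESeq2 (2 higher and 10 lower in KO), 81 with no filter (5 higher and 76 lower), 0 with limma-voom and 1 with each of the remaining fits of 7 libraries, against 1 in the main analysis, and 1 to 3 with 1 mouse left out (3 without KO_306 or WT_284, 2 without KO_314 or WT_290). At an unadjusted p under 0.05 there were 0 members except without KO_306 (Eif2s2) and without WT_312 (Eif1 and Eif2s2). Positive fold changes made 49.2% of members (all genes 47.6%), but 64.4% (51.9%) with upper-quartile factors, 62.7% (50.1%) without WT_284 and 69.5% (47.6%) without KO_314; the cause was not tested. Of 546 values of 39 named members, 43 changed sign, in 15 genes. Eif2a was at -0.0019 with DESeq2, -0.0032 with RLE factors and -0.0093 with limma-voom. With upper-quartile factors Eif2s3x was at 0.022, Eif4e2 at 0.015, Eif4ebp2 at 0.023, Eif4g1 at 0.031 and Eif4g3 at 0.031. With 1 CPM in 3 libraries Eif2s3x was at 0.00037, Eif4g1 at 0.0093 and Eif4g3 at 0.0090, and limma-voom gave Eif4g3 0.049. Leaving out 1 mouse gave log2 fold changes from -0.49 to 0.14 for Eef1akmt1, -0.023 to 0.24 for Eef1b2, -0.21 to 0.079 for Eef2, -0.14 to 0.15 for Eif2a, -0.14 to 0.080 for Eif2s3x, -0.34 to 0.013 for Eif3j2, -0.13 to 0.048 for Eif4a1, -0.31 to 0.026 for Eif4b, -0.013 to 0.14 for Eif4e, -0.14 to 0.077 for Eif4e2, -0.14 to 0.092 for Eif4ebp2, -0.081 to 0.054 for Eif4g1, -0.18 to 0.020 for Eif4g2, -0.072 to 0.10 for Eif4g3 and -0.13 to 0.64 for Eif5a2. Of 104 alternative values for the summed factor groups, 0 moved by more than 1 SD between replicates. Leaving out 1 of 3 or 4 libraries cannot move a group mean that far, so this count is no sign of stable sums. With 1 mouse left out, the log2 ratio of mean sums (KO over WT) ran from -0.048 to 0.060 for scanning and -0.055 to 0.041 for eIF3. It ran from -0.078 to 0.0018 for eIF4F, -0.12 to 0.024 for the 4E-BP group and -0.19 to 0.063 for Eef2. The sign held in the other tested groups. With the longest transcript as length, an alternative chosen after seeing the data, the order within the Eif4e, Eif4a, Eif1a and 4E-BP sets changed in at least 1 genotype. Depth limits Eif5a2 and the low eEF1A methyltransferases.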
